A study of Mus musculus with 6 samples.

Results

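Skin taken from around incisional wounds of mice on day 14 was compared by RNA sequencing between wounds given the BRAF inhibitor vemurafenib and control wounds. The comparison used 2 of the 6 deposited libraries, because each arm had 1 library on each of days 2, 6 and 14. Female C3Hf/Kam mice (background strain C3H in the labels), 8 to 10 weeks old, received a full-thickness incision in the shaved back. Vemurafenib (2 mg, in DMSO and PBS) or vehicle (DMSO in PBS) was then applied to the wound on the day of wounding and on alternate days until day 12. The controls are vehicle-treated in the methods of the study but are described as untreated in the GEO labels. In the same way, the labels call the poly-A-enriched libraries single-end and the methods call them paired-end. The sources used here do not state how many mice stand behind a library.

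Values were the authors' gene-level FPKM, that is, fragment counts divided by transcript length and by the number of fragments mapped in a library. The table held 23940 entries, of which 27 carried symbols that had been turned into dates and were left out. The 13392 genes whose FPKM averaged 1 or more across the 6 libraries were described by the log2 ratio of vemurafenib to vehicle after 0.1 FPKM had been added to both. With 1 library per arm there is no replicate error on day 14, so no test was made, no ratio has a standard error, and each difference is one between 2 libraries. In whole skin, fewer cells of a type and less RNA per cell cannot be told apart.

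By day 14 a closed incision is in the remodelling phase. Keratinocytes that migrated over the gap return to the program in which basal cells divide and suprabasal cells build the cornified layer, and the dermal scar is reorganized. Dorsal mouse skin also holds the panniculus carnosus, a thin sheet of skeletal muscle that a full-thickness incision severs, and hair follicles that enter the growth phase, anagen, in which the hair shaft is made. Vemurafenib blocks mutant BRAF, but in cells with normal BRAF it can activate the ERK pathway through RAF dimers.

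Both day 14 libraries carried the defining markers of whole skin. The basal keratin Krt5 stood at 1436 FPKM with vehicle against 1977 FPKM with vemurafenib, the suprabasal keratin Krt10 at 889 and 360, the fibroblast collagen Col1a1 at 1026 and 820, the skeletal muscle actin Acta1 at 715 and 2096, and the adipocyte hormone Adipoq at 62.3 and 91.4. The endothelial marker Pecam1 (13.8 and 16.3 FPKM) and the leukocyte marker Ptprc (2.91 and 1.57 FPKM) were low in both.

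The vehicle day 14 library stood apart from the other 5 in a way that touches every ratio described here. Against the 6-library average, the median gene in the GC-richest of 5 equal classes of transcripts was 0.77 log2 units lower than that in the GC-poorest class (-0.77), whereas this difference lay between -0.03 and 0.35 in the other libraries. The longest class exceeded the shortest by 0.80 log2 units in that library, against -0.31 to 0.02 in the others. Accordingly the day 14 ratio followed GC content (Spearman 0.56 across 12670 genes) and transcript length (-0.44). The median ratio went from -0.62 in the GC-poorest class to 0.34 in the richest, and from 0.34 in the shortest class to -0.49 in the longest. On day 6 the same correlations were -0.22 and 0.15, and on day 2 they were -0.31 and 0.01. Genes are not independent, and these correlations are descriptions. Each ratio was therefore also taken relative to the median of genes of like length and GC content, here called the relative ratio. Both are given for most lists and for many single genes. A gene shown with its FPKM or measured ratio alone can differ in the relative ratio. Why the library differs was not tested.

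**Figure D1:**
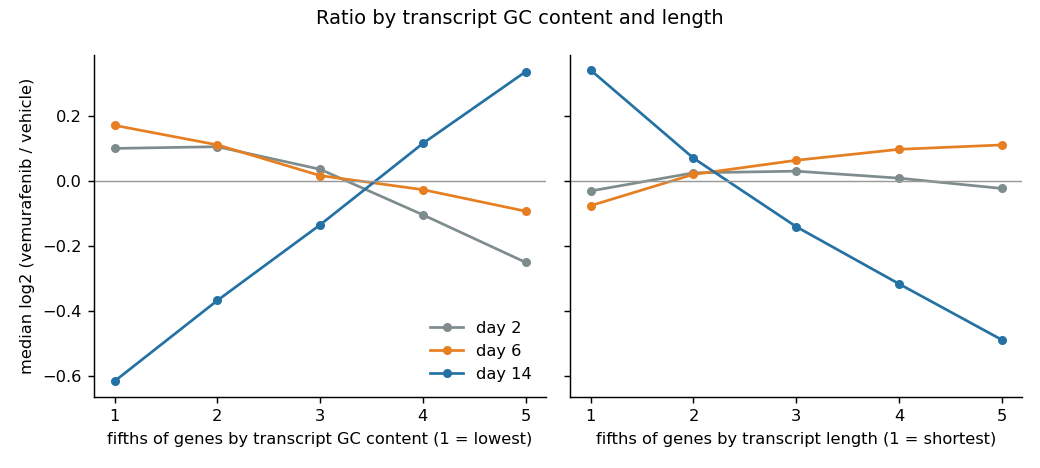
Median log2 ratio of vemurafenib to vehicle (vertical axis) in 5 classes of genes ordered by transcript GC content (left) or length (right), 12670 genes in all, with 1 line for each day. The day 14 line runs from -0.62 to 0.34 with GC content and from 0.34 to -0.49 with length, and the lines of days 2 and 6 span less.

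Over all genes the median log2 ratio on day 14 was -0.12, and 5677 genes (42.4%) lay above 0. At least 2-fold higher with vemurafenib were 487 genes (3.64%), and at least 2-fold lower were 1026 (7.66%), so that 32.2% of the genes past 2-fold were higher. This split depends on scaling. With the median set to 0 it was 700 higher and 744 lower (48.5% higher), and with both libraries brought to the same total FPKM it was 352 and 1521 (18.8% higher). Relative to genes of like length and GC content, 232 genes (1.83%) were higher and 530 (4.18%) lower by 2-fold or more. Of the 487 higher genes, 332 had a relative ratio and 133 of these stayed past 2-fold. For the 1026 lower genes the corresponding numbers were 956 and 381. In 363 of the 487 higher genes (74.5%) the vehicle day 14 library was the lowest of all 6, and in 749 of the 1026 lower genes (73.0%) it was the highest of all 6. Over all genes it was the lowest in 24.1% and the highest in 34.2%. These shares are no baseline for the genes past 2-fold, which were chosen by the day 14 values themselves. The vemurafenib day 14 library was the highest of all 6 in 116 of the 487 higher genes (23.8%). It was the lowest in 347 of the 1026 lower genes (33.8%).

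Small RNA genes, which poly-A-enriched libraries capture poorly, were over-represented among the genes past 2-fold. They made up 247 genes, of which 87 were higher and 36 lower, 49.8% in all against 10.6% of the 13145 other genes. They are not described further. The lists of named genes below are given by their counts and medians, to be read against the values over all genes. Some lists share members, so their counts are not separate observations.

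**Figure D2:**
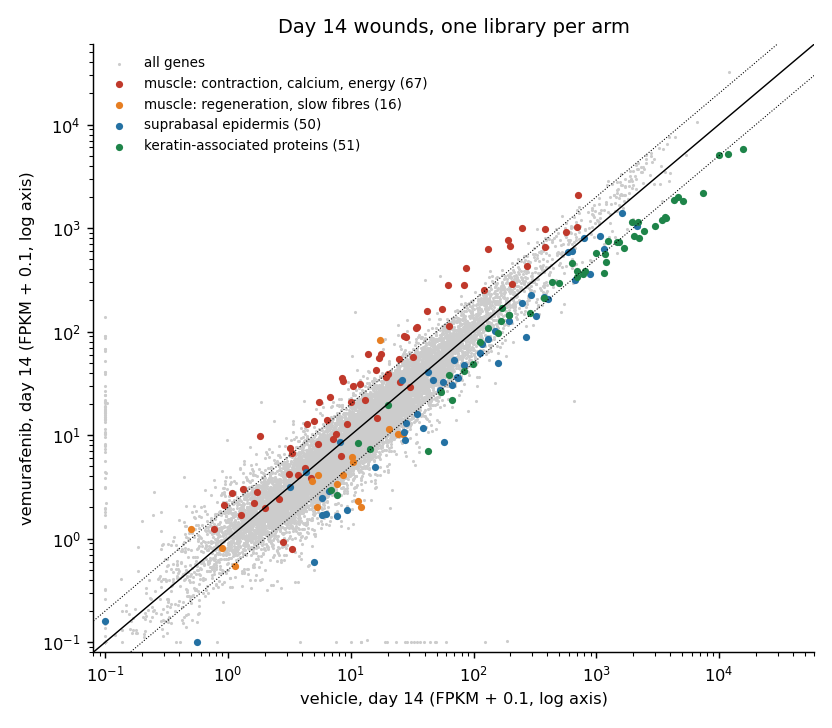
FPKM in the vehicle library (horizontal, log axis) against the vemurafenib library (vertical, log axis) on day 14, each gene a point, 0.1 FPKM added. The solid line is equality and the dotted lines mark 2-fold. Genes of muscle contraction, calcium handling and energy supply lie mostly above the line, and the 51 hair keratin-associated proteins, the 16 muscle regeneration and slow fibre genes and the 50 suprabasal genes lie mostly below it.

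**Figure D3:**
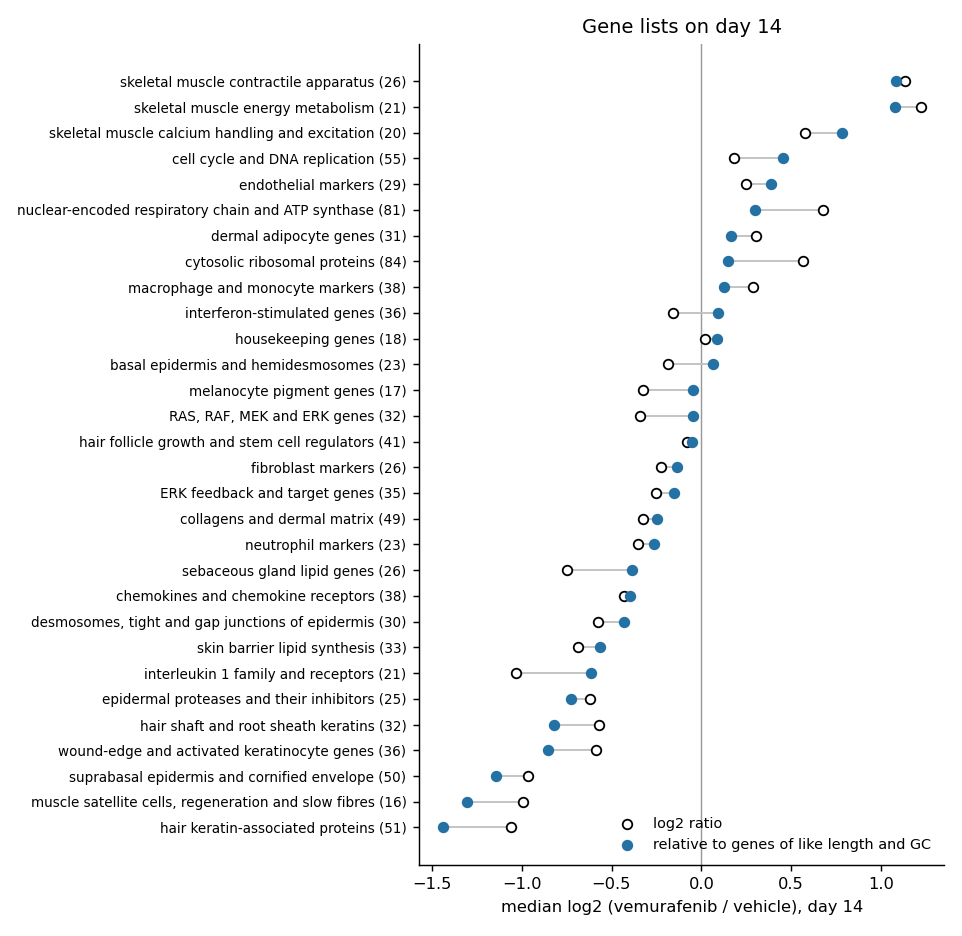
Median log2 ratio on day 14 for 30 gene lists (number of genes past the filter in parentheses). Open circles are the ratio as measured and filled circles the ratio relative to genes of like transcript length and GC content. The contractile and energy lists of skeletal muscle stand above 1 on both scales, and hair keratin-associated proteins stand below -1 on both.

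The results turn on genes of mature muscle, suprabasal epidermis and the hair shaft. The promoter of 1 gene of each is shown, from 250 bases before to 50 bases after the transcription start, as RefSeq gives it on GRCm38.p6 (the expression table used mm9). Acta1, skeletal muscle actin, was higher with vemurafenib (chr8:123894726-123895025, minus strand), and Krt10, the type I keratin of suprabasal cells (chr11:99389315-99389614, minus strand), and Krtap8-1, a glycine- and tyrosine-rich protein of the hair shaft (chr16:89487903-89488202, minus strand), were lower. Capitals mark E-box letters (CANNTG), which basic helix-loop-helix factors such as MyoD recognize, and KLF letters (CACCC or its complement).
Acta1: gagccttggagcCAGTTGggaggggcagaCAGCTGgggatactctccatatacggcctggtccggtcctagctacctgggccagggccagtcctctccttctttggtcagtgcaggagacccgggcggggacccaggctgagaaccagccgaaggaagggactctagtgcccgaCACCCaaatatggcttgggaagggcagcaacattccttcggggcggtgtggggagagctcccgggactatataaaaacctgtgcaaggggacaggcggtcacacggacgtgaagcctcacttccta
Krt10: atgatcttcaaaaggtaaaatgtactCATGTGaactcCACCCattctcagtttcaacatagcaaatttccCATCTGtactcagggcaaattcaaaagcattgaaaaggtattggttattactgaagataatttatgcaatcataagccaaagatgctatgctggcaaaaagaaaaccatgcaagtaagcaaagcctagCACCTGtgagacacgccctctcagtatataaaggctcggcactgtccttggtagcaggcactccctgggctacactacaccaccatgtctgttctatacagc
Krtap8-1: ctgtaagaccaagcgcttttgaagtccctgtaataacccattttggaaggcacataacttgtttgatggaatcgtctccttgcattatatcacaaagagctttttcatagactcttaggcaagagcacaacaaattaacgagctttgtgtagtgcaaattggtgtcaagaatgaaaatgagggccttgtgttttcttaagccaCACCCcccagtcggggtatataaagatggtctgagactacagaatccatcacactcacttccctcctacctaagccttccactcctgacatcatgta
The Acta1 window held 2 E-boxes and 1 KLF match, Krt10 held 3 and 1, and Krtap8-1 held 0 and 1. AP-1 letters (TGANTCA) and the MEF2 motif, also searched on both strands with every overlapping match counted, were in none of the 3 windows. Among the 28 keratin-associated genes at least 2-fold lower, 25 had a window in the table. Of these, 22 (88%) held an E-box, 12 (48%) KLF letters, 3 (12%) AP-1 letters and 0 MEF2. Over all 27025 promoters the shares were 72.1%, 56.7%, 7.93% and 3.26%. For muscle and suprabasal genes the count was void, because windows were found for only 26 of 37 and 18 of 24 genes. A match is a description of letters and not evidence of a bound site.

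Genes of mature, fast skeletal muscle were higher with vemurafenib. Of 26 genes of the contractile apparatus, 24 were higher and 15 were at least 2-fold higher, with a median log2 ratio of 1.14 (relative 1.08) against -0.12 (relative 0) over all genes. All 21 genes of muscle energy supply were higher, 13 of them by at least 2-fold (median 1.22, relative 1.08). In the relative ratio, 14 contractile and 11 energy genes stayed at least 2-fold higher, and none of either list was 2-fold lower.

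Acta1 (mm9 chr8:126415669-126418651, minus strand) was at 715 FPKM with vehicle against 2096 FPKM with vemurafenib, a log2 ratio of 1.55 and a relative ratio of 1.01. Tnnc2, the calcium-binding troponin of fast fibres (mm9 chr2:164602661-164605467, minus strand), was at 248 and 1004 FPKM (2.02, relative 1.43). The rest of the fast troponin complex was higher as well. Its inhibitory subunit Tnni2 was at 191 and 768 FPKM and its tropomyosin-binding subunit Tnnt3 at 199 and 672 FPKM. The fast myosin heavy chains Myh4 of type IIb fibres (mm9 chr11:67051314-67073948, plus strand; 5.44 and 20.7 FPKM) and Myh1 of type IIx fibres (mm9 chr11:67013554-67038078, plus strand; 34.3 and 110 FPKM) had log2 ratios of 1.91 and 1.67, and relative ratios of 2.12 and 1.99. Myh2 of type IIa fibres differed less, at 5.30 and 8.05 FPKM. Among other sarcomere genes, the titin cap Tcap stood at 61.6 and 280.0 FPKM and the fast myosin-binding protein Mybpc2 at 8.44 and 35.1 FPKM. The sarcomere genes that differed least on the list still included abundant ones, such as the light chain Myl1 (382 and 655 FPKM) and the tropomyosin Tpm1 (563 and 909 FPKM).

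Calcium handling and excitation were mixed. Of 20 genes past the filter, 14 were higher, 9 by at least 2-fold, and 6 were lower, 2 by at least 2-fold (median 0.57, relative 0.78). The pump that returns calcium to the reticulum, Atp2a1, was at 83.8 and 284 FPKM, its store protein Casq1 at 27.2 and 89.8, and the cytosolic buffer of fast fibres, Pvalb, at 87.1 and 409. The 2 genes at least 2-fold lower both encode subunits of the acetylcholine receptor, which embryonic and denervated muscle carries outside the synapse as well. Chrng, the fetal gamma subunit, was at 3.25 FPKM with vehicle against 0.696 FPKM with vemurafenib (-2.07, relative -2.35), and Chrna1 at 2.70 and 0.831 FPKM (-1.59, relative -1.04). The 4 others below 0 were Asph, Casq2, Chrnb1 and Sln, with log2 ratios from -0.40 to -0.07, of which Asph was above 0 in the relative ratio (0.56).

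Muscle-specific isoforms had larger ratios than their ubiquitous counterparts. Of cytochrome oxidase, the muscle form Cox6a2 was at 27.9 and 89.2 FPKM (log2 ratio 1.67) and the general form Cox6a1 at 572 and 1108 (0.95). Cox7a1 was at 13.8 and 60.3 (2.12) and Cox7a2 at 263 and 337 (0.36), and Cox8b was at 41.7 and 156 (1.90) and Cox8a at 621 and 1038 (0.74). In the relative ratio the muscle forms remained at 1.08, 1.52 and 1.39, while the general forms were at 0.17, 0.12 and -0.04. Rpl3l, the muscle paralog of a ribosomal protein, showed the same contrast, at 4.03 and 21.1 FPKM, beside Rpl3 at 1053 and 1152 FPKM. Glycogen phosphorylase Pygm (17.0 and 55.5 FPKM), the muscle enolase Eno3 (55.7 and 167) and the muscle phosphoglycerate mutase Pgam2 (34.2 and 109) were about 3-fold higher. Myoglobin Mb, which stores oxygen, was at 206 and 286 FPKM (0.47, relative -0.04).

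Genes of muscle regeneration and slow fibres went the other way. Of 22 such genes, 16 passed the filter (Pax7, Myf5, Myh7, Myl2, Myl3 and Musk did not). Of the 16, 14 were lower, 8 by at least 2-fold, and 2 were at least 2-fold higher (median -0.99, relative -1.30). Embryonic or cardiac sarcomere genes that regenerating fibres express made up much of the group. Myl4, the embryonic light chain, was at 26.7 FPKM with vehicle against 10.1 FPKM with vemurafenib, the cardiac actin Actc1 at 24.3 and 10.05, and the perinatal heavy chain Myh8 (mm9 chr11:67090626-67122136, plus strand) at 7.65 and 3.25. The slow and cardiac troponin C, Tnnc1, was at 11.3 and 2.23 FPKM (-2.30, relative -2.89) and the stretch-responsive Ankrd1 at 11.9 and 1.90 (-2.58, relative -2.34). Tmem8c, the fusion protein myomaker, was at 5.24 and 1.94 FPKM, and Myog, which drives the last step of myoblast differentiation, at 8.50 and 4.06. The 2 higher genes were Apobec2, an editing enzyme relative of mature muscle, and Mstn, myostatin, which restrains muscle growth and was low (0.397 and 1.14 FPKM).

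The place of the day 14 libraries in the time course differed between the groups. The contractile genes were lower on day 14 than on day 2 in both arms, with a median difference of -3.07 log2 units with vehicle and -2.09 with vemurafenib. The vehicle day 14 library was the lowest of the 6 for 23 of 26 contractile genes and 20 of 21 energy genes. For the regeneration list the vemurafenib day 14 library was the lowest in 13 of 16, and the median difference of day 14 from day 6 was -3.47 with vemurafenib and -1.99 with vehicle. Because these lists fell towards day 14 in both arms, the counts of lowest values largely follow from the day 14 ratios above. They are not separate observations.

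**Figure D4:**
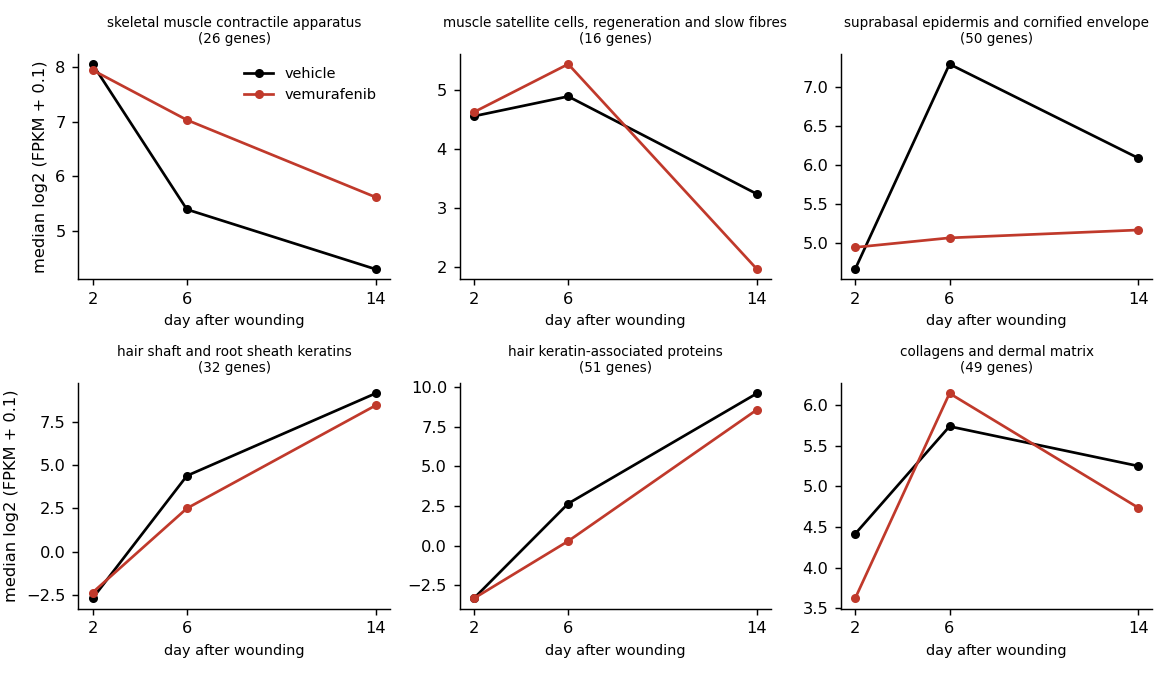
Median log2 (FPKM + 0.1) of 6 gene lists (vertical axis, a separate range in each panel) on days 2, 6 and 14, with vehicle in black and vemurafenib in red, 1 library per point. On day 14 the 26 contractile genes are higher with vemurafenib (5.62 against 4.30) and the 16 regeneration and slow fibre genes are lower (1.95 against 3.23).

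Suprabasal epidermis was lower with vemurafenib. Of 50 genes of suprabasal keratinocytes and the cornified envelope, 45 were lower, 24 by at least 2-fold (7.66% of all genes), and none was 2-fold higher. The median was -0.96, and the relative median of -1.15 was further from 0, with 32 genes at least 2-fold lower. The basal layer did not share this. Of 23 basal and hemidesmosome genes 11 were higher, 3 were at least 2-fold lower, and the median was -0.19 (relative 0.06).

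The keratin pair that suprabasal cells assemble was lower in both partners. Krt1 (mm9 chr15:101675859-101681217, minus strand) was at 268 FPKM with vehicle against 89.5 FPKM with vemurafenib (log2 ratio -1.58, relative -1.65), and Krt10 (mm9 chr11:99246568-99250678, minus strand) at 889 and 360 FPKM (-1.30, relative -1.42). The basal pair was not: Krt5 was at 1436 and 1977 FPKM (0.46, relative 0.16) and Krt14 at 1332 and 1692 FPKM (0.35, relative -0.06). Krt77, a further suprabasal keratin, was at 323 and 140 FPKM, and Krt80 at 158 and 49.7. Genes for granular layer proteases that process filaggrin, and for filaggrin relatives, were also lower with vemurafenib. Casp14, the caspase that cleaves filaggrin, was at 38.3 and 11.6 FPKM, the filaggrin-processing protease Asprv1 at 674 and 317, and the filaggrin relatives Flg2 and Hrnr at 27.5 and 8.76 and at 5.68 and 1.59.

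Envelope proteins themselves were spread widely. Loricrin, Lor, the main envelope protein, was at 638 and 605 FPKM (-0.08, relative -0.61), Sbsn at 592 and 586, and Cnfn at 802 and 806. Involucrin, Ivl, was at 113 and 61.9, and Sprr4, a small proline-rich protein, at 2164 and 1055 (-1.04, relative -1.42). Late cornified envelope genes such as Lce1m (293 and 225 FPKM) and Lce1a1 (196 and 127) are near-identical neighbours whose reads the counting could have exchanged. Some of the most abundant envelope genes were thus close to equal between arms in the measured ratio, while Lor and Cnfn were lower in the relative one (-0.61 and -0.78).

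Genes of the skin barrier and of cell contacts were lower too. The junction list shares the desmosome gene Dsc1 with the suprabasal list, so the counts of these lists overlap. Of 33 genes of barrier lipid synthesis 31 were lower, 12 by at least 2-fold (median -0.69, relative -0.57), and of 30 junction genes 27 were lower, 10 by at least 2-fold (median -0.57, relative -0.43). Here the relative ratio left fewer genes past 2-fold, 6 and 5. Abca12, the transporter that fills lamellar bodies with lipid, was at 7.60 and 1.76 FPKM (-2.04, relative -1.42). Alox12b, a lipoxygenase needed for the lipid envelope, was at 8.22 and 3.0 (-1.42, relative -1.64), and Elovl4, which makes very long fatty acids for ceramides, at 182 and 82.4 (-1.14, relative -0.57). For the tight junction genes Cldn1 (140 and 64.3 FPKM; -1.12, relative -0.47), Ocln (13.1 and 4.88; -1.41, relative -0.65) and Tjp1 (13.7 and 5.33; -1.34, relative -0.72) the relative ratio was no longer past 2-fold. Of 25 epidermal proteases and inhibitors 21 were lower and 5 at least 2-fold lower (median -0.62, relative -0.72), among them the desquamation kallikreins Klk7 (331 and 206 FPKM) and Klk9 (8.36 and 3.0).

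Wound-edge genes, which keratinocytes switch on when they migrate or are inflamed, fell into separate patterns. Of 36 past the filter 28 were lower, 15 by at least 2-fold, and 3 were at least 2-fold higher (median -0.59, relative -0.85). Among the keratins of activated keratinocytes, Krt6a was at 208 and 231 FPKM (0.15, relative 0.04). Krt17, also a hair follicle keratin, was at 1594 and 2583 (0.70, relative -0.01). These values do not stand for the other keratins of the list. The antimicrobial S100a7a, at 160 and 62.1 FPKM (-1.36), and stefin genes of the Stfa cluster, such as Stfa3 at 30.1 and 9.18 and BC100530 at 33.3 and 5.08, were lower. The proline-rich Sprr1b was at 104 and 48.3 FPKM. Of the 3 higher genes, the defensin Defb3 was listed at 0 in the vehicle library and at 1.58 FPKM in the other, so no fold is given.

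The interleukin 1 family, many of whose members keratinocytes make, was also lower. Of 21 family members and receptors 18 were lower and 11 at least 2-fold lower (median -1.03), and in the relative ratio 20 were lower and 8 at least 2-fold lower (median -0.61). Il1f8 is in the suprabasal list as well, so the counts of these lists overlap. The interleukin 36 branch, made by keratinocytes, was lower in ligand, antagonist and receptor. Il1f8 (interleukin 36 beta) was at 4.92 and 0.498 FPKM, the receptor antagonist Il1f5 at 26.9 and 10.7, and the receptor Il1rl2 at 10.1 and 1.81 (-2.41, relative -2.36). Il33, an alarmin kept in nuclei, was at 15.7 and 6.46 FPKM (-1.27, relative -0.75), Il18 at 31.4 and 15.2, and the receptor antagonist Il1rn at 31.4 and 18.6.

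Genes of the hair shaft were lower with vemurafenib. On day 14 the keratin-associated proteins, which cross-link keratin in the hair shaft, summed to 101069 FPKM with vehicle against 42409 FPKM with vemurafenib, 13.8% and 5.28% of all FPKM in the library. On day 6 the sums had been 665 and 107 FPKM, and on day 2 they were 3.36 and 6.96. All 51 genes past the filter were lower with vemurafenib on day 14, 28 by at least 2-fold (median -1.06). The vehicle day 14 library was the highest of the 6 for all 51. Given the low sums of days 2 and 6, this is not a separate observation. In the relative ratio 43 had a value and 37 of them were at least 2-fold lower (median -1.44). Near-identical copies within these families could share reads, so the values of single members are uncertain. When the scaling ignored the 100 most abundant genes, the split over all genes was 545 higher and 943 lower.

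Krtap8-1 (mm9 chr16:89487619-89488197, minus strand), whose promoter is shown above, was at 15823 FPKM with vehicle against 5853 FPKM with vemurafenib (log2 ratio -1.43, relative -1.68), the highest values of the list. Krtap7-1 (mm9 chr16:89507949-89508568, minus strand) was at 11844 and 5160 FPKM (-1.20, relative -1.47). The extremes were Krtap27-1 at 42.3 and 6.94 FPKM (-2.59, relative -2.71) and Krtap4-9, near equality in the measured ratio only (-0.02, relative -0.71). Genes of the cluster on chromosome 16, which holds most of the glycine- and tyrosine-rich proteins, had a median of -1.40 over 20 genes, with 17 at least 2-fold lower. The 19 genes of the sulfur-rich cluster on chromosome 11 had a median of -0.97 (9 at least 2-fold lower), the 5 on chromosome 7 -0.74 and the 2 on chromosome 10 -0.42. The relative medians of chromosomes 16, 11, 7 and 10 lay closer together, at -1.48 (17 genes), -1.38 (19), -1.24 (4) and -0.95 (1).

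Hair keratins were grouped by the follicle layer that makes them, a grouping formed after their values had been seen. Over the whole list of 32 hair shaft and root sheath genes, 29 were lower, 6 by at least 2-fold (median -0.57), and in the relative ratio all 31 with a value were lower, 13 by at least 2-fold (median -0.82). The inner root sheath, which moulds the shaft and forms early in anagen, was nearer to equality in the measured ratio. Its 9 genes summed to 15420 FPKM with vehicle against 14264 FPKM with vemurafenib, with a median of -0.15 and none past 2-fold. In the relative ratio all 9 were below 0 (median -0.28), and Krt72 was past 2-fold (-1.02). Krt71 (mm9 chr15:101564381-101573540, minus strand) was at 5367 and 5128 FPKM, Krt25 at 3630 and 3442, Krt73 at 585 and 589, and trichohyalin, Tchh, at 1286 and 1114. Keratins of the matrix and precortex, where shaft formation begins, were close in the measured ratio. Krt35 was at 536 and 534 FPKM (-0.01, relative -0.41), and Krt85, which has no relative ratio, at 954 and 815 (-0.23).

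Keratins that appear later in the shaft were lower. The 7 cortex keratins summed to 6451 and 3141 FPKM (median -0.99, relative -1.53), and the 4 cuticle keratins to 192 and 85.0 FPKM (median -1.39, relative -1.70). Krt83 (mm9 chr15:101261921-101269235, minus strand) was at 518 and 155 FPKM (-1.74, relative -2.28), and Krt33a (mm9 chr11:99872509-99877526, minus strand) at 1473 and 579 FPKM (-1.35, relative -1.53). Krt31 at 789 and 398 FPKM (-0.99, relative -1.53) and Krt86 at 910 and 479 (-0.92, relative -1.46) were within 2-fold in the measured ratio only. In the cuticle, Krt39 was at 18.4 and 4.35 FPKM and Krt82 at 42.0 and 14.3. Gprc5d, a receptor of the shaft-forming zone, was at 644 and 295 FPKM.

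**Figure D5:**
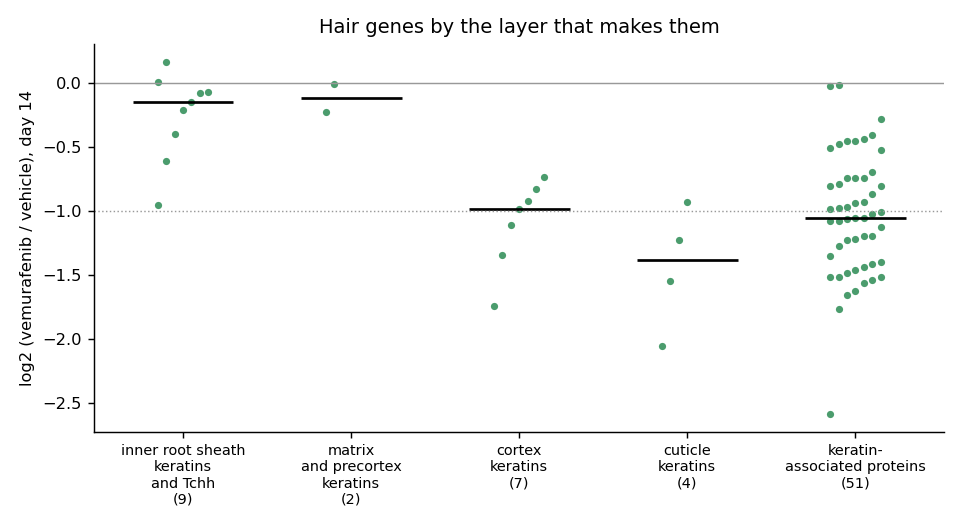
Log2 ratio of vemurafenib to vehicle on day 14 (vertical axis) for hair genes grouped by layer, each point a gene and each bar the median, with the number of genes in parentheses. The dotted line marks 2-fold lower. Inner root sheath genes and the matrix and precortex keratins have medians of -0.15 and -0.12, and cortex keratins, cuticle keratins and keratin-associated proteins have medians of -0.99, -1.39 and -1.06.

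Regulators of hair growth were balanced. Of 41 past the filter 20 were higher and 21 lower (median -0.08, relative -0.05), 4 of them at least 2-fold lower. The transcription factors of the matrix and precortex, Hoxc13 (98.4 and 90.2 FPKM), Msx2 (80.2 and 76.0), Lef1 (32.8 and 35.3) and Dlx3 (227 and 252), differed little. Foxn1, which turns on shaft keratins, was at 51.3 and 28.7 FPKM (-0.84, relative -0.96). The hedgehog receptor Ptch1, itself a target of the pathway, was at 7.72 and 2.12 FPKM (-1.82, relative -1.73), whereas the target Gli1 was at 7.99 and 13.3 and the ligand Shh at 4.66 and 6.94. Foxe1, a follicle transcription factor named for its large ratio, was at 24.3 and 92.2 FPKM (1.92, relative 1.59), and Tbx1 at 37.1 and 87.5 (1.24, relative 0.70). Melanocyte genes, which follow the hair cycle, had a median of -0.32 and a relative median of -0.05 over 17 genes.

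In the dermis, collagens and matrix genes were lower in most members. Of 49 genes 39 were lower, 9 by at least 2-fold, and 1 was at least 2-fold higher (median -0.32). Over all 13392 genes 7629 were lower, and 7.66% of all were at least 2-fold lower. The relative median was -0.25, and then 2 of the 49 genes were at least 2-fold lower. That share is near the 4.18% over all genes with a relative ratio. Col3a1, the collagen of early scar, was at 1208 FPKM with vehicle against 542 FPKM with vemurafenib (-1.16, relative -0.82), and Col1a1, the main collagen of mature dermis, at 1026 and 820 (-0.32, relative -0.40). The matricellular proteins Postn (266 and 113 FPKM; -1.23, relative -0.67) and Thbs2 (43.8 and 15.8; -1.47, relative -0.96) and the proteoglycan Lum (134 and 53.6; -1.32, relative -0.75) went from past 2-fold to within it in the relative ratio. Aspn was at 44.6 and 12.5 FPKM (-1.82, relative -1.25). Sparc, which binds collagen, was at 1435 and 818 FPKM (-0.81, relative -0.84). On day 6 the same list had a median of 0.39. Fibroblast markers had a median of -0.22 (relative -0.14) over 26 genes.

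Macrophage markers were divided. Of 38 genes 21 were higher, 3 by at least 2-fold, and 1 was at least 2-fold lower (median 0.29, relative 0.13). Higher members included the lipid receptor Trem2 at 18.3 and 67.1 FPKM (1.87, relative 1.18), the lysosomal protease Ctss at 87.6 and 186 (1.08, relative 1.19), and the lysozymes Lyz1 (45.5 and 108) and Lyz2 (256 and 465). The pan-macrophage markers Csf1r (23.7 and 22.2 FPKM) and Emr1 (8.39 and 6.29), the latter encoding F4/80, were not higher. The monocyte chemokine receptor Ccr2 was at 5.58 and 1.91 FPKM (-1.50, relative -0.66). Neutrophil markers were low in both arms, summing to 136 FPKM with vehicle against 105 FPKM with vemurafenib (median -0.35, relative -0.26).

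Of 38 chemokines and their receptors 27 were lower and 11 at least 2-fold lower (median -0.43), of which 5 stayed past 2-fold in the relative ratio. Ccl17 and Ccl22, ligands of the same receptor on skin-homing T cells, were at 3.44 and 0.284 FPKM and at 2.02 and 0.695 FPKM. Ccl20, which keratinocytes make, was at 3.48 and 1.09 FPKM. Interferon-stimulated genes had a median of -0.16 over 36 genes (relative 0.10), after a day 6 median of 1.45. Dendritic and Langerhans cell markers were lower in 17 of 25, 6 by at least 2-fold (median -0.36, relative -0.54). Ccl17 is in this list and in the chemokine list, so their counts are not separate observations. The Langerhans lectin Cd207 was at 5.44 and 2.07 FPKM (-1.35, relative -1.43).

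Endothelial markers were higher in 19 of 29 genes, 3 by at least 2-fold (median 0.25, relative 0.39). Sox18, a transcription factor of vessel growth, was at 12.2 and 30.1 FPKM (1.30, relative 0.76), the junction protein Cldn5 at 8.32 and 19.4 (1.21, relative 0.50) and Egfl7 at 17.8 and 40.0 (1.17, relative 0.76). Lyve1, of lymphatic vessels and some macrophages, was lower at 5.08 and 2.18 FPKM. These 3 genes were within 2-fold in the relative ratio, in which 22 of the 29 were higher and Emcn, an endothelial sialomucin at 5.69 and 8.32 FPKM, was past 2-fold (1.08, against 0.54 as measured).

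Components and targets of the pathway that vemurafenib acts on were lower in most members in the measured ratio, as were most genes. Over all 13392 genes 7629 were lower, and 7.66% of all were at least 2-fold lower (median -0.12, relative 0). Of 32 RAS, RAF, MEK and ERK genes 22 were lower, 3 by at least 2-fold (median -0.34, relative -0.05). In the relative ratio 18 of these were lower and 14 higher. Braf itself was at 7.92 and 3.91 FPKM, a log2 ratio of -1.0 and a relative ratio of -0.28. The kinase Mapk3 (118 and 157 FPKM) had a log2 ratio of 0.41 and was level in the relative ratio (0.01). Of 35 ERK feedback and target genes 24 were lower, 4 by at least 2-fold (median -0.25, relative -0.15). In the relative ratio 23 of them were lower and 12 higher. The ERK phosphatase Dusp6, at 29.1 and 34.4 FPKM, was among the 11 genes of this list that were higher in the measured ratio. It does not stand for the 24 that were lower.

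Cell cycle genes were slightly above the other genes in the measured ratio and further above them in the relative one. Of 55 genes 35 were higher, 1 by at least 2-fold (median 0.18), and in the relative ratio 50 of 55 were higher (median 0.45). Birc5, survivin, was at 27.8 and 56.8 FPKM (1.03, relative 1.34), and Plk1, a mitotic kinase, at 11.7 and 22.4 (0.93, relative 0.72). The proliferation marker Mki67 was at 9.30 and 10.9 FPKM (0.22, relative 0.85) and Top2a at 22.9 and 22.6 (-0.01, relative 0.72). Both of the last genes were near equality in the measured ratio only.

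Short, abundant transcripts of the ribosome and the mitochondrion were closer to the other genes in the relative ratio. Of 84 cytosolic ribosomal protein genes 79 were higher (median 0.57, relative 0.15), and of 81 nuclear genes of the respiratory chain 75 were higher (median 0.68, relative 0.30). The 18 housekeeping genes had a median of 0.02 (relative 0.09), with Actb at 1486 and 1469 FPKM. Metallothioneins, which bind zinc, were higher, Mt1 at 527 and 1298 FPKM (1.30, relative 0.71) and Mt2 at 730 and 1589 FPKM (1.12, relative 0.43). The ferritin light chain Ftl1 was at 1235 and 2622 FPKM (1.09, relative 0.40).

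The day 14 differences were set beside those of the other days, which come from other libraries. Of the 487 genes at least 2-fold higher on day 14, 239 had a ratio above 0 and 226 below 0 on day 6. Past 2-fold were 108 upward and 48 downward there, against 708 and 674 of all 13392 genes. Of the 1026 lower genes, 570 were above 0 and 443 below 0 on day 6, with 66 past 2-fold upward and 155 downward. By list, the contractile genes had a median of 1.12 on day 6, the suprabasal genes -1.67 and the keratin-associated proteins -2.43, each with the sign of day 14. Suprabasal genes were higher on day 6 than on day 2 by a median of 2.44 log2 units with vehicle and of 0.22 with vemurafenib, and day 14 differed from day 6 by -1.75 and -0.58. Keratin-associated proteins were higher on day 14 than on day 6 by a median of 6.74 log2 units with vehicle and of 8.27 with vemurafenib. On day 2 the contractile, suprabasal and keratin-associated medians were 0.11, 0.46 and 0.00.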

How the data were processed

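Libraries were made from poly-A-enriched skin RNA, and 1 is deposited per arm and day. Per the methods of the study, the authors mapped the reads to mm9 with TopHat and obtained FPKM with cuffquant and cuffnorm, correcting for fragment bias and multi-reads; TopHat2 and Cuffdiff are further names in the submitters' processing notes. The deposited FPKM come without read counts, so the depth is unknown and no counting interval is given. In 4 of the 6 libraries 50.3% to 58.1% of values above 0 carry more than 6 digits, against 0.0056% in the vemurafenib day 2 and 0% in the vehicle day 14 library. The 2 day 14 libraries thus differ in the form of their values (50.3% with vemurafenib). Whether a deposited column averages more than 1 measurement is not stated in the sources used here, and was not tested. Totals ranged from 692634 to 931171 FPKM.

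From these, log2 ratios were computed in Python 3.11.15 (numpy 2.4.6, pandas 2.3.3, figures with matplotlib 3.10.9) after adding 0.1 FPKM, over genes that averaged 1 FPKM or more. Relative ratios subtracted the median of genes in the same of 10 length and 10 GC classes (at least 20 genes each), from the longest coding transcript in GENCODE for mm9, for 12670 of 13392 genes. The calculation was tested on simulated data. Named genes are the 30 highest and 30 lowest with at least 5 FPKM in a day 14 library (small RNA, histone and predicted genes left out), those 2-fold apart with at least 200 FPKM, and in each of 56 lists the 8 with the largest ratio and any of at least 100 FPKM; other members are named for their role. Members and lists were chosen with earlier results of these data known. Alternatives were other pseudocounts, filters, scalings and fold thresholds.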

Additional observations from a re-analysis of the deposited data

Results flagged for a closer look

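The genes of muscle satellite cells, regeneration and slow fibres were picked out because their list moved in opposite directions on different days. The median log2 ratio of vemurafenib to vehicle over the 16 genes past the filter was -0.99 on day 14 and 0.68 on day 6, and relative to genes of like length and GC content it was -1.30 and 0.81. The regeneration sarcomere gene Actc1 had a log2 ratio of 2.35 on day 6 and -1.27 on day 14, and Myh8 1.65 and -1.21. With 1 library per arm and day, the difference between the days was not tested.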

How the results depend on the processing

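The counts of genes past 2-fold were the values that depended most on the processing. The 487 higher genes became 1699 with a 1.5-fold threshold, 167 with a 3-fold threshold, 321 where the mean had to reach 5 FPKM, 739 with no filter, 322 with a pseudocount of 1 FPKM and 232 relative to genes of like length and GC content, an alternative chosen after seeing the data. The 1026 lower genes became 3043, 246, 524 (mean of at least 5 FPKM), 627 (pseudocount of 1 FPKM) and 530 (relative ratio), the first pair for the thresholds of 1.5-fold and 3-fold. Of 55 list medians, none changed its sign where it was at least 0.5 from 0, and each moved by less than 1.5-fold under every scaling, filter and pseudocount run for it. The exception was that of the red blood cell genes, which went from 0.25 to 1.15 where the mean had to reach 5 FPKM. That filter gave no value for the T and NK cell list, which then had under 5 members. Scalings shift nearly all genes by a like, small amount, so they could hardly have moved a median by 1.5-fold. Medians nearer to 0 did change sign. In the relative ratio the basal epidermis list went from -0.19 to 0.06 and the interferon-stimulated list from -0.16 to 0.10. Ribosomal proteins, from 0.57 to 0.15, also count as a move of less than 1.5-fold. No paired analysis was possible because the day 14 comparison holds 1 library per arm, and a fit across the days would test another comparison. Depth is not known, and the vehicle day 14 library enters every ratio, so that leaving it out leaves no comparison.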

Other observations

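Among lists not described above, the sebaceous gland genes had 22 of 26 members lower, 5 by at least 2-fold (median log2 ratio -0.75, relative -0.39). Far2, which makes fatty alcohols for wax esters, was at 15.8 FPKM with vehicle against 3.0 FPKM with vemurafenib, and Elovl3, an elongase of sebaceous and hair lipids, at 55.3 and 28.5 FPKM. Dermal adipocyte genes differed from these. Of 31, 21 were higher, 4 by at least 2-fold (median 0.31, relative 0.16), with the complement protease adipsin, Cfd, at 405 and 809 FPKM, while the lipid-binding Fabp4 was at 1829 and 1921 FPKM.

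Individual genes with very large ratios need care. Rps27 was at 662 FPKM with vehicle against 21.2 FPKM with vemurafenib, but it has a near-identical copy, Rps27rt, and the sum of both was 3880 and 5974 FPKM. How the reads were divided between the copies was not tested. Amd1 (1.74 and 20.6 FPKM) and the pseudogene Atp6v0c-ps2 (10.8 and 155 FPKM) also have close copies in the genome.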
